A study of Mus musculus with 24 samples.

Results

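Leukemic granulocyte monocyte progenitors carrying MOZ-TIF2 were set against progenitors taken 36 hours after the same oncogene had been introduced. The comparison rests on 7 of the 24 arrays of the series: the 3 samples titled MT2_L-GMP (L-GMP below) and the 4 titled MT2-GMP (MT2 below), chosen by their titles alone. Granulocyte monocyte progenitors (GMP) of C57BL/6 mice were transduced by spinoculation with the MOZ-TIF2 fusion, and GFP-positive cells were lysed 36 hours later to give the MT2 samples. The L-GMP samples are described as leukemic stem cells with the surface phenotype of GMP, sorted from a MOZ-TIF2 leukemia model in C57BL/6 mice, with the transduction entry left as not applicable. A second pair of groups, which shares no array with the first, marks what the 36 hours after spinoculation differ by in cells without an oncogene: 3 samples of GMP carrying the empty GFP vector (GFP, lysed at 36 hours) and 4 samples of sorted, untransduced normal GMP (GMP). L-GMP and GMP were sorted and lysed, while MT2 and GFP had passed through spinoculation and the 36 hours after it, so in L-GMP against MT2 the leukemic state and the handling of the cells cannot be told apart from those 7 arrays alone. Below, sorted is a short name for L-GMP and GMP. MT2 cells were also selected, as GFP-positive cells, so the name does not single out sorting as the step that differs. The labels do not say how many leukemias, animals or cultures the replicates stand for, nor the age or sex of the mice, so each p-value refers to the spread among the arrays at hand, part of which may be technical.

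GMP are the bone marrow progenitors that give rise to neutrophils and monocytes, and they rely on cytokine receptors, C/EBP factors and PU.1 while losing the self-renewal of stem cells. MOZ-TIF2 joins the histone acetyltransferase Kat6a (MOZ) to the nuclear receptor coactivator Ncoa2 (TIF2), occurs in human acute myeloid leukemia, and gives committed progenitors the capacity to self-renew; Hoxa genes and Meis1 are textbook genes of that state. Cells moved into culture with high cytokine doses are known to switch on feedback and nutrient genes, whereas cells dissociated and sorted from tissue can switch on immediate early and heat shock genes.

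Messenger RNA was measured on Affymetrix 430A 2.0 arrays, and every level below is a log2 expression value, on which 5.91 (60 on the linear scale) is the background level named in the study's design. A gene is represented by 1 probe set, and a difference is called where limma's p-value, adjusted over all probe sets tested by Benjamini-Hochberg, is under 0.05. The number of arrays limits the precision. On each of the 14 arrays of the 4 groups, 46.1% to 47.5% of probe sets exceeded that level. Over those arrays, L-GMP 1 stood apart from the other L-GMP arrays: its correlations with them were 0.880 and 0.903, against 0.971 between L-GMP 2 and L-GMP 3, and it had the largest log2 3′ minus 5′ differences of the Gapdh (4.82) and actin (3.45) control probe sets. GMP 2 was the least alike of the GMP arrays (0.932 to 0.968). File names carry a tag that set L-GMP 1 with MT2 1 to 3, all GFP arrays and GMP 1 to 3 (tag A), MT2 4 and GMP 4 together (tag B), and L-GMP 2 and L-GMP 3 in neither.

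The labelled cell type was checked on fixed markers. Of 9 GMP markers (Kit, Cd34, Fcgr3, Fcgr2b, Mpo, Elane, Cebpa, Csf3r and Csf2rb), 9 were over the background level on every MT2 array and 7 on every L-GMP array. Fcgr3 and Csf2rb were not over it on all L-GMP arrays. Csf2rb was over it on 0 of the 4 normal GMP arrays (3.65 to 5.64), so it is a weak marker here. The summed linear level of 6 neutrophil markers (Ltf, Camp, Ngp, S100a8, S100a9 and Mmp8) was 47700 on L-GMP 1, 4529 on L-GMP 2 and 2256 on L-GMP 3, against 6266 to 18280 on the MT2 arrays. L-GMP 1 was thus above every MT2 array and L-GMP 2 and L-GMP 3 below every one of them. The sum of 5 monocyte and macrophage markers was 11880 to 15190 in L-GMP and 7857 to 11320 in MT2, and that of 5 dendritic cell markers was 276 to 540 and 378 to 672. The 4 LSK stem cell markers on the array (Procr, Slamf1, Mecom and Hlf) were at or under the background level on all L-GMP arrays, as were 4 of 4 T and NK cell markers, 4 of 4 B cell markers and 3 of 3 erythroid markers on all L-GMP and MT2 arrays. On the LSK arrays of the series, Mecom was under that level too and Slamf1 stood at 5.56 to 5.91, so these are weak checks. In MT2, Hlf was just over the level on 4 arrays (5.91 to 6.04) and Procr was over it on 1. The 4 megakaryocyte markers summed to 93.3 to 555 in L-GMP and 212 to 2141 in MT2, the 5 mast cell, basophil and eosinophil markers to 188 to 605 and 191 to 323, and the 5 stromal and endothelial markers to 106 to 167 and 110 to 139. In bulk samples, fewer cells of a type and less RNA per cell cannot be told apart. The part of the neutrophil markers in the results below was not tested; counts without L-GMP 1 stand beside those of the gene lists.

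**Figure D1:**
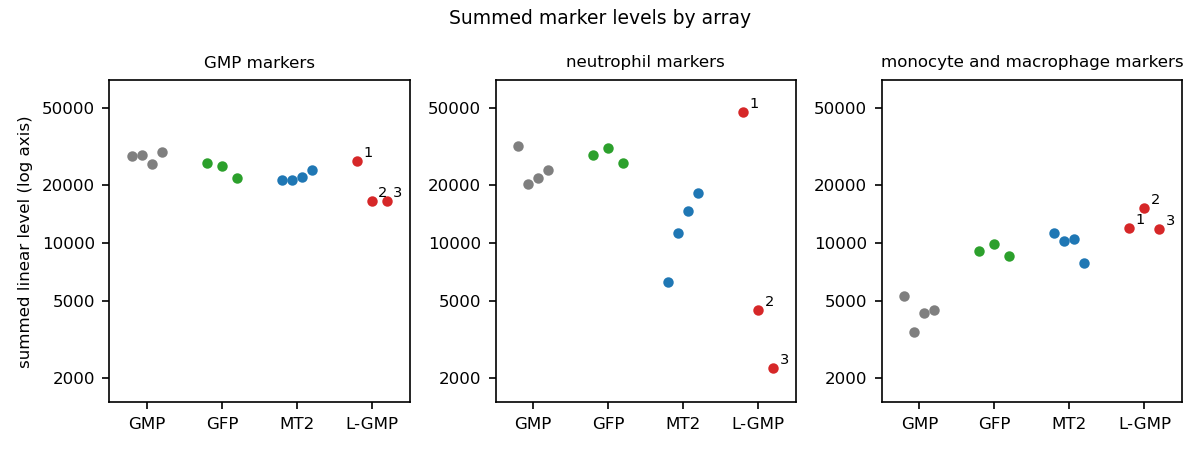
Summed linear level (log axis) of the GMP, neutrophil, and monocyte and macrophage markers on each array; each point is 1 array, and the L-GMP points carry their replicate number. The neutrophil sum of L-GMP 1 (47700) is the highest of the 14 arrays and those of L-GMP 2 (4529) and L-GMP 3 (2256) are the lowest.

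In L-GMP against MT2, 817 of 7032 genes tested were called (11.6%), 401 higher (5.70%) and 416 lower (5.92%) in L-GMP, and the median difference over all genes was −0.0048. Genes whose groups did not overlap on any array were 12.6% (higher) and 13.1% (lower) of those tested. Heat shock and immediate early genes, the AP-1 partner Jun, the prostaglandin-degrading enzyme Hpgd, the fetal RNA-binding protein Igf2bp3 and cyclin D1 were among the genes that rose, and hypoxia, glycolysis and amino acid response genes, cyclin D2 and secreted or surface proteins such as Thbs1 and Mmp8 were among those that fell. Without L-GMP 1 the number of probe sets called went from 1294 of 11362 tested to 4157 of 11225. Of the 4157, 2277 were higher and 1880 lower, and 1279 of the 1294 were still called with the same sign. List counts without L-GMP 1, given below, are to be read beside these larger shares. In that setting L-GMP 2 and L-GMP 3 alone stand for L-GMP. They carry neither file-name tag, and every MT2 array carries 1, so tag and group cannot be told apart there. Leaving out MT2 1, MT2 2, MT2 3, MT2 4 or L-GMP 2 instead gave 661, 595, 656, 721 and 755 calls, and leaving out L-GMP 3 gave 930. With the file-name tag as a factor in a fit of all 24 arrays, 2272 probe sets were called and 1171 of the 1294 kept their call and sign. Within tag A, where L-GMP 1 alone stands for L-GMP and is assumed to vary like the other groups, 2923 were called, 1132 higher and 1791 lower, and 912 of the 1294 kept their call and sign.

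The empty-vector cells were read the same way. In GFP against GMP, 1179 of 7103 genes were called (16.6%), 623 higher (8.77%) and 556 lower (7.83%) at 36 hours. Of the 416 genes lower in L-GMP than in MT2, 154 (37.0%) were called higher in GFP than in GMP, that is, in the same direction of sorted against 36-hour cells, and 16 were called in the other direction. Of the 401 genes higher in L-GMP, 70 (17.5%) had the direction of sorted against 36-hour cells and 12 the other one. Over the 6837 genes tested in both, the L-GMP minus MT2 difference had a Pearson correlation of 0.486 (Spearman 0.395) with the GMP minus GFP difference, given as a description across genes, which are not independent replicates. Without GMP 2 the 1782 probe sets called in GFP against GMP became 4043, and without any 1 of GMP 1, GMP 3 or the GFP arrays 811 to 1113.

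The difference between these differences, (L-GMP minus MT2) minus (GMP minus GFP), was tested for each gene in 1 fit of the 14 arrays. It called 444 of 7298 genes (6.08%), 271 positive (3.71%) and 173 negative (2.37%). The same contrast is (L-GMP minus GMP) minus (MT2 minus GFP). A change that L-GMP and MT2 share, each against its own normal group, therefore cancels in it, and a difference between MT2 and GFP enters it. Among the genes higher in L-GMP than in MT2, 134 of 401 (33.4%) were also called positive in it, and among the lower ones 94 of 416 (22.6%) were called negative and 9 positive. For the other 267 higher and 313 lower genes, a difference from the sorted-against-36-hour change of normal cells was not shown, which does not mean that the changes were equal. The 670 probe sets called (410 positive, 260 negative) became 1229 without L-GMP 1 and 1110 without GMP 2, of which 485 were positive and 625 negative, and 445, 394 and 421 without GFP 1, 2 and 3.

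**Figure D2:**
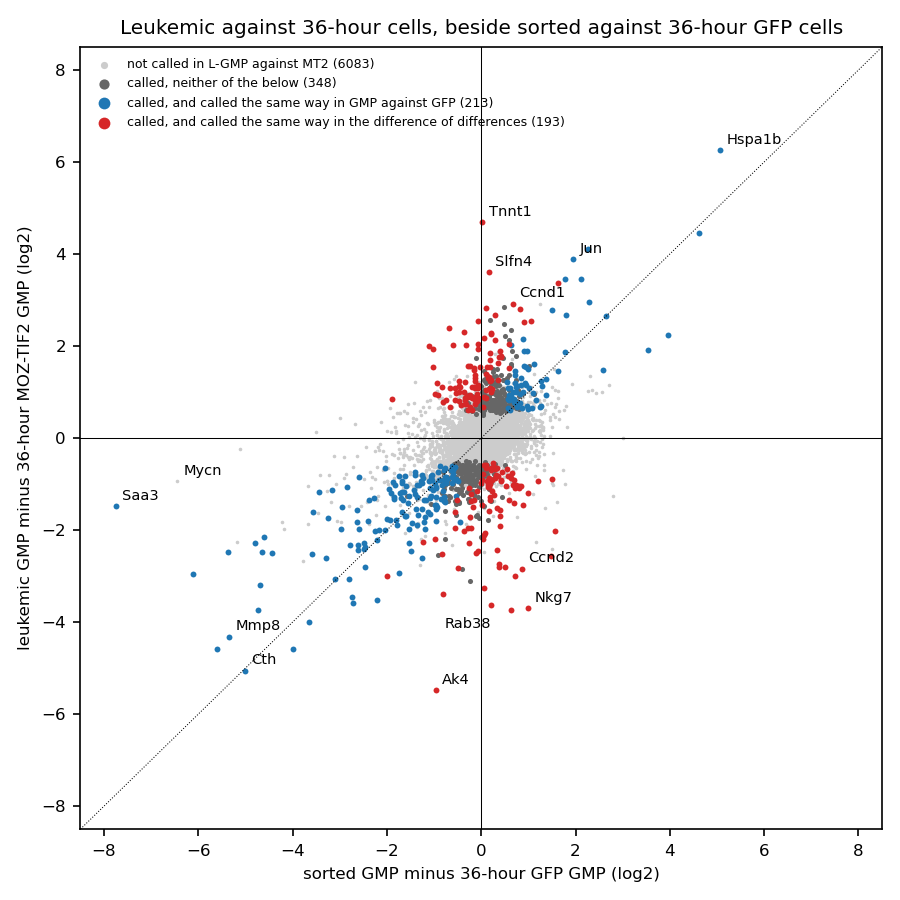
Each point is a gene tested in both comparisons, with its log2 difference between sorted GMP and 36-hour GFP GMP on the horizontal axis and between L-GMP and MT2 on the vertical axis; the dotted line marks equal differences. Hspa1b, Cth and Mmp8 lie near that line, while Tnnt1, Slfn4, Ak4, Rab38 and Ccnd2 lie far from it.

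Heat shock and immediate early genes were among the largest increases. Of 26 tested genes of the immediate early and stress list, 14 rose and none fell, with a median difference of 1.39 (median over all genes −0.0048). The 14 were Fos, Fosb, Jun, Jund, Egr1, Ier2, Klf2, Dusp1, Zfp36, Ppp1r15a, Hspa1a, Hspa1b, Dnajb1 and Rhob. At least Hspa1a, Hspa1b and Dusp1 entered the test through L-GMP alone, as a gene needs 2 arrays of 1 group over the background level. This favours higher over lower values among them. The medians of the list on L-GMP 1, 2 and 3, each against the MT2 mean, were 1.63, 1.72 and 1.00, and without L-GMP 1 the count was 15 higher and 1 lower. The count of higher genes ran from 10 to 17 with each array left out in turn. Its lowest value under the other alternative settings was 0.

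Hspa1b, an inducible Hsp70 chaperone, stood at 12.21, 10.86 and 11.32 on the L-GMP arrays and at 5.41, 5.48, 5.13 and 4.80 on the MT2 arrays. In the other pair of groups it stood at 10.64, 9.86, 9.29 and 10.59 in GMP and at 4.74, 5.13 and 5.19 in GFP. Both sorted groups were thus high and both 36-hour groups under the background level, without overlap. Hspa1b was at least 47.1-fold higher in L-GMP than in MT2, a log2 difference of 6.26 (SE 0.32, adjusted p = 4.0e-05), and its GFP minus GMP difference was −5.07 (adjusted p = 2.3e-05). Its near-identical neighbour Hspa1a, whose probe set may read both transcripts, differed by 4.45 (SE 0.51, adjusted p = 0.0016), and the difference of differences of the pair was 1.18 (adjusted p = 0.19) and −0.17 (adjusted p = 0.93).

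The promoters of Hspa1b and Jun are shown because they hold the paired heat shock motif, GAANNTTC or TTCNNGAA searched on both strands, where the 2 forms may overlap. The windows are the 250 bases before the RefSeq transcript start (GRCm38.p6), read 5′ to 3′ on the gene's strand with matches in capitals, with Hspa1b at chr17:34959239-34959488 on the minus strand and Jun at chr4:95052223-95052472 on the minus strand.
Hspa1b: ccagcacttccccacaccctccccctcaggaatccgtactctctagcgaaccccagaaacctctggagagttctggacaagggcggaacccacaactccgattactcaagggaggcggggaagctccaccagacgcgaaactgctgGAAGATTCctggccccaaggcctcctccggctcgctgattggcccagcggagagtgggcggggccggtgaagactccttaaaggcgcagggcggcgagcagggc
Jun: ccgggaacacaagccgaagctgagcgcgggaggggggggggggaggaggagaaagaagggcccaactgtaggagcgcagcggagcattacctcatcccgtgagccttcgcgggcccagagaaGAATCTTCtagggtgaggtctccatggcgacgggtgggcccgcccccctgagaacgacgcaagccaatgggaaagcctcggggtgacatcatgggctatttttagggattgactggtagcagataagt
Of the 12 called members with a window in the RefSeq table, 3 held the motif (Hspa1a is the other one), as did 3 of the 22 tested members with a window (13.6%), against 12.1% of the 5808 tested genes with a window and 14.5% of all 27025 genes there. The match is a description of these letters and not a binding site.

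Dusp1, a phosphatase that switches off MAP kinases, stood at 9.88, 9.97 and 8.60 in L-GMP and at 4.39, 5.79, 5.94 and 5.34 in MT2. The difference was 4.12 (SE 0.45, adjusted p = 0.0012), at least 11.9-fold, without overlap. Dusp1 stood at 7.90, 10.13, 7.65 and 7.15 in GMP and in GFP at 6.65, 5.38 and 5.79. Jun, a subunit of AP-1, stood at 10.74, 10.28 and 9.40 in L-GMP and at 5.04, 6.37, 7.23 and 6.36 in MT2. It was 14.8-fold higher in L-GMP, a log2 difference of 3.89 (SE 0.50, adjusted p = 0.0027). Fos, its AP-1 partner, named after its values were seen, differed by 2.95 (SE 0.55, adjusted p = 0.013). In GFP minus GMP, the difference was −1.95 for Jun (adjusted p = 0.02) and −2.28 for Fos (adjusted p = 0.02).

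In L-GMP against MT2, 1 of the 14 moved beyond the sorted-against-36-hour difference of normal cells. Klf2, a Kruppel-like factor of quiescent blood cells, stood at 8.36, 8.28 and 7.53 in L-GMP against 5.99, 6.30, 6.11 and 6.08 in MT2, a difference of 1.94 (SE 0.22, adjusted p = 0.0015). In GFP against GMP the Klf2 difference was 1.03 (adjusted p = 0.27), and the difference of differences was 2.96 (SE 0.68, adjusted p = 0.019). Egr1, a zinc finger immediate early factor, stood at 8.82, 9.19 and 8.46 in L-GMP against 5.33, 6.83, 6.59 and 5.37 in MT2. It was 6.93-fold higher in L-GMP, a log2 difference of 2.79 (SE 0.41, adjusted p = 0.0044), with a difference of differences of 2.53 (adjusted p = 0.065). In the difference of differences, 5 of the 26 list members were positive (Klf2, Ier3, Ier5, Junb and Gadd45b) and 1 was negative (Myc); of these 6, Klf2 alone was called in L-GMP against MT2. Klf2's call there was lost without GFP 3 (adjusted p = 0.0501), and those of Ier3, Junb and Gadd45b without 6, 9 and 9 of the 14 arrays in turn. GMP 2 had higher levels of Fos, Jun, Egr1, Klf2 and Dusp1 than the other GMP arrays; without it the difference of differences was 3.58 (adjusted p = 1.7e-05) for Klf2, 3.05 (adjusted p = 0.0071) for Egr1, 2.49 (adjusted p = 0.025) for Dusp1, 2.39 (adjusted p = 0.032) for Jun and 1.07 (adjusted p = 0.44) for Fos, of which Fos was not called.

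**Figure D3:**
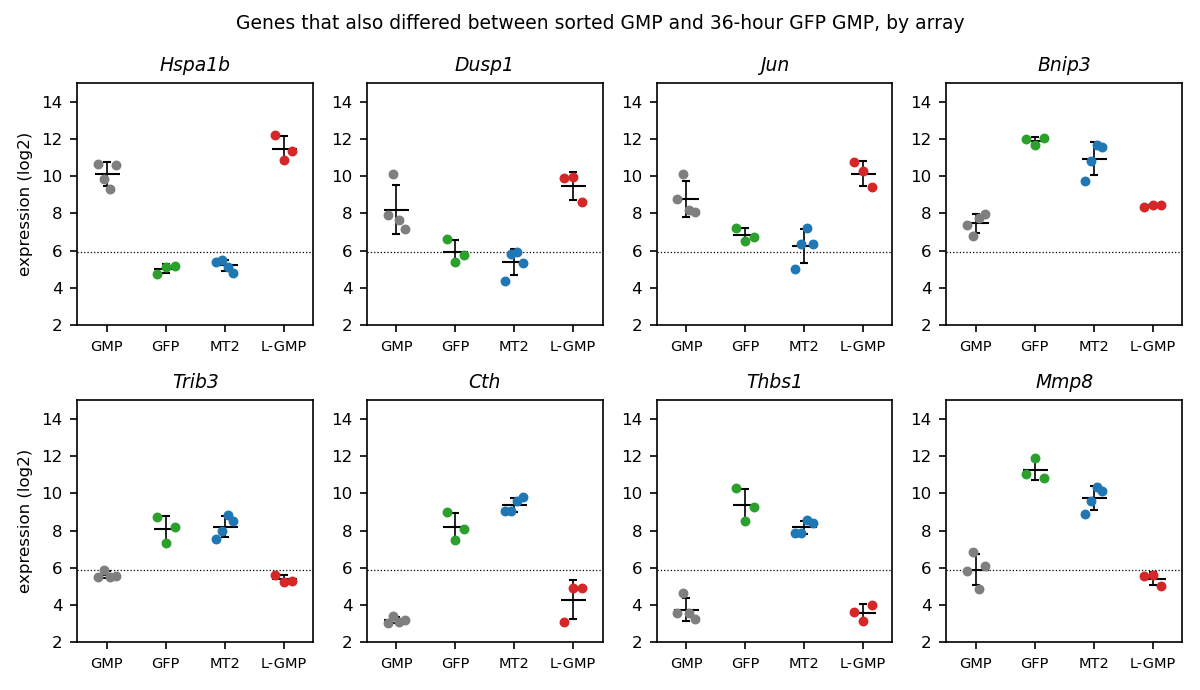
Log2 expression of 8 genes on each array (points), with the mean and SD of each group (bars) and the background level (dotted line). Hspa1b, Dusp1 and Jun are high in both sorted groups, and Bnip3, Trib3, Cth, Thbs1 and Mmp8 are high in both 36-hour groups.

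Glycolysis and hypoxia genes were lower in L-GMP. Of 27 tested genes, 13 fell and none rose, with a median difference of −0.97, and 24 of 27 were below 0. The 13 were the glucose transporter Slc2a1, the glycolytic enzymes Pfkl, Aldoa, Aldoc, Pgk1, Pkm and Ldha, the mitochondrial kinase Pdk1, Bnip3, Vegfa, the prolyl hydroxylases Egln1 and Egln3, and Hif1a. All 13 were called in GFP against GMP with the opposite sign, where 23 of 28 list members rose. The medians of the list on L-GMP 1, 2 and 3 against the MT2 mean were −0.92, −1.04 and −1.15. The count was 19 without L-GMP 1, and it was 5 without MT2 3, MT2 4 or L-GMP 2 and 6 without MT2 2 or L-GMP 3. Its lowest value under the other alternative settings was 0.

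Bnip3, a hypoxia-induced mitophagy receptor, stood at 8.36, 8.48 and 8.47 in L-GMP and at 9.74, 10.79, 11.66 and 11.56 in MT2. It stood at 7.40, 6.79, 7.74 and 7.94 in GMP and at 11.99, 11.68 and 12.04 in GFP, so that each 36-hour group lay above the sorted group beside it on every array. The L-GMP minus MT2 difference was −2.50 (SE 0.43, adjusted p = 0.0089), 5.65-fold lower. Hif1a, the oxygen-regulated transcription factor, stood at 8.38, 7.93 and 7.91 in L-GMP and 9.68, 9.38, 9.14 and 9.48 in MT2, a difference of −1.35 (SE 0.19, adjusted p = 0.0039). Aldoa differed by −1.29 (SE 0.17, adjusted p = 0.0027) and Egln1, which marks Hif1a for decay when oxygen is present, by −1.32 (SE 0.18, adjusted p = 0.0034); the other tested probe set of Egln1 was not called. In the difference of differences, 3 of 28 list members were positive (Slc2a1, Slc16a3 and Ddit4) and none was negative; the call of Ddit4 was lost without 9 of the 14 arrays in turn, GMP 2 and L-GMP 1 among them. Of the named members, Aldoa gave 0.56 (adjusted p = 0.16), Hif1a 0.31 (adjusted p = 0.70) and Bnip3 1.93 (adjusted p = 0.0501, and 0.047 without L-GMP 1) there.

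Promoters of Bnip3 and Hif1a are printed because the core of the hypoxia response element, ACGTG on either strand, lies in them (capitals). The same 250-base windows were used, with Bnip3 at chr7:138909507-138909756 on the minus strand and Hif1a at chr12:73907617-73907866 on the plus strand.
Bnip3: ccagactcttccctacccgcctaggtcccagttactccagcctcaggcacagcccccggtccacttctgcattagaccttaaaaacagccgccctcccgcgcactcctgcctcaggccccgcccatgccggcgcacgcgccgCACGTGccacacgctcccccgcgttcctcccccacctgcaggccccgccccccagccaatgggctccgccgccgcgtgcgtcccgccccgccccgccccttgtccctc
Hif1a: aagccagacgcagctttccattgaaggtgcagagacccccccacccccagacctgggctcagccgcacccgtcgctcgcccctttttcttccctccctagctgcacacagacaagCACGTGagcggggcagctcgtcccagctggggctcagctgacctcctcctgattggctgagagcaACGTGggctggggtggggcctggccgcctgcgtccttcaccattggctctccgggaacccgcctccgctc
The motif was in the windows of 10 of the 13 called members (76.9%) and of 18 of 25 tested members with a window (72.0%), against 26.6% of tested genes with a window and 18.5% of all genes there. Overlapping matches on the 2 strands are capitalised together. Members were listed as genes of this response, so a share above that of all genes can come from the choice of list. Whether called members held the motif more often than tested members was not tested. The matches describe letters and are not binding sites.

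Amino acid response genes were also lower. Of 34 tested genes of the ATF4 and unfolded protein response list, 12 fell and none rose, and 33 of 34 were below 0 (median −0.67). The 12 were Trib3, Asns, Chac1, Psph, Mthfd2, Aldh18a1, Slc7a11, Slc3a2, Sars, Nars, Hsp90b1 and Vldlr, most of which make, import or charge amino acids. Of these 12, 8 were called with the opposite sign in GFP against GMP and 4 were not called there. No member was called in the difference of differences by limma, whose median over the list was −0.25. At least Trib3, Slc7a11 and Vldlr entered the test of L-GMP against MT2 through MT2 alone, which favours lower over higher values among them. On L-GMP 1, 2 and 3 the list's median against the MT2 mean was −0.84, −0.50 and −0.59, and without L-GMP 1 the count was 19 lower and 1 higher. The count of lower genes was as low as 9 with another array left out. Its lowest value under the other alternative settings was 2.

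Cth, which makes cysteine from cystathionine and is not in the list, stood at 3.08, 4.90 and 4.93 in L-GMP and 9.03, 9.05, 9.57 and 9.78 in MT2. It stood at 3.06, 3.43, 3.07 and 3.20 in GMP and 8.98, 7.50 and 8.11 in GFP. All 7 sorted samples were under the background level and all 7 samples at 36 hours over it. The L-GMP minus MT2 difference was −5.05 (SE 0.45, adjusted p = 5.3e-04), at least 10.9-fold lower, and the GFP minus GMP difference 5.01 (SE 0.30, adjusted p = 1.9e-05), which left a difference of differences of −0.05 (adjusted p = 0.98). Asns, asparagine synthetase, stood at 8.74, 9.02 and 8.97 in L-GMP against 10.63, 10.63, 10.90 and 10.82 in MT2. It was 3.57-fold lower in L-GMP, a log2 difference of −1.84 (SE 0.15, adjusted p = 3.3e-04). Trib3, a pseudokinase induced by ATF4, differed by −2.81 (SE 0.30, adjusted p = 0.0011), and Slc7a11, the cystine transporter, by −2.45 (SE 0.22, adjusted p = 5.3e-04). Vldlr, a lipoprotein receptor of the same list, differed by −3.46 (SE 0.34, adjusted p = 8.4e-04).

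The promoters of Asns, Slc7a11 and Vldlr are shown because each holds the amino acid response motif TGATGNAA on one of the strands (capitals), with Asns at chr6:7693210-7693459 on the minus strand, Slc7a11 at chr3:50443614-50443863 on the minus strand and Vldlr at chr19:27216770-27217019 on the plus strand.
Asns: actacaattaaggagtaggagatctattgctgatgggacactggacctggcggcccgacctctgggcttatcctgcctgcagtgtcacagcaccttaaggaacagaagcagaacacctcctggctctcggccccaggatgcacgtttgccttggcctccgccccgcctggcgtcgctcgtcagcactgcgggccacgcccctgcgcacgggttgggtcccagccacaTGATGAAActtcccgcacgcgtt
Slc7a11: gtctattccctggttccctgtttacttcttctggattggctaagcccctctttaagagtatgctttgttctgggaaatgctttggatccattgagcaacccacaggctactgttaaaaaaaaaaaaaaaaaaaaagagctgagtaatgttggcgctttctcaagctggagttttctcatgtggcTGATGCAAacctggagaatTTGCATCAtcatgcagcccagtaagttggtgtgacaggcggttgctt
Vldlr: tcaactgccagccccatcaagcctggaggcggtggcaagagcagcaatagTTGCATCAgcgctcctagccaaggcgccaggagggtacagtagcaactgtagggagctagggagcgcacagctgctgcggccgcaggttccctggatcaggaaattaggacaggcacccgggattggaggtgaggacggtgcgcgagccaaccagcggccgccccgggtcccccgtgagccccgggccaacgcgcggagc
The motif was in 4 of the 11 called members with a window (36.4%) and 8 of 29 tested members (27.6%), against 2.43% of tested genes and 3.91% of all genes. Here too the share above all genes can come from the choice of list, and called against tested members was not tested. These matches are letters and not binding sites.

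Several surface and secreted proteins of myeloid cells fell with the 36-hour genes. Thbs1, the matrix protein thrombospondin, stood at 3.64, 3.12 and 4.02 in L-GMP and 7.86, 7.90, 8.56 and 8.41 in MT2. It was at least 4.84-fold lower in L-GMP, a log2 difference of −4.59 (SE 0.27, adjusted p = 6.8e-05). Mmp8, the neutrophil collagenase, stood at 5.58, 5.65 and 5.03 in L-GMP and 8.89, 9.58, 10.33 and 10.15 in MT2. It was at least 14.2-fold lower in L-GMP, a log2 difference of −4.32 (SE 0.35, adjusted p = 2.9e-04). Mmp8 was thus under the background level on L-GMP 1 too, the array with the highest neutrophil marker sum. Clec4n, the fungal receptor Dectin-2, stood at 6.10, 7.07 and 4.44 in L-GMP and 10.86, 9.38, 9.77 and 9.46 in MT2, a log2 difference of −4.00 (SE 0.60, adjusted p = 0.0051). Ifitm1, an interferon-induced membrane protein, stood at 5.68, 8.80 and 7.83 in L-GMP and 11.85, 12.04, 12.28 and 11.95 in MT2, a log2 difference of −4.59 (SE 0.61, adjusted p = 0.0032).

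Spint1, an inhibitor of serine proteases, differed by −3.73 (SE 0.29, adjusted p = 2.5e-04). Gpnmb, a glycoprotein of macrophages, differed by −3.59 (SE 0.64, adjusted p = 0.011), and Dmkn, the secreted protein dermokine, by −3.52 (SE 0.56, adjusted p = 0.0067). All 7 of these genes rose in GFP against GMP, by between 2.21 (Dmkn) and 5.60 (Thbs1), and none was called in the difference of differences, where the 7 values ran from −1.31 to 1.02; without L-GMP 1, Dmkn was called there at −2.12 (adjusted p = 2.8e-04). In the other direction, Cd27, a TNF receptor family member, and Bex6 rose in L-GMP by 2.23 (adjusted p = 0.011) and 1.91 (adjusted p = 0.0054), and both fell in GFP against GMP, with differences of −3.95 and −3.53 (adjusted p = 4.8e-05 and 1.4e-04). The uncharacterised transcript 1700097N02Rik was 11.1-fold higher in L-GMP, a log2 difference of 3.47 (SE 0.55, adjusted p = 0.0064) and lower in GFP than in GMP, with a difference of −2.11 (adjusted p = 0.0014).

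Some genes were high at 36 hours and also in L-GMP, although L-GMP were sorted. Saa3, an acute phase protein, stood at 10.48, 11.93 and 11.13 in L-GMP, 12.25, 12.69, 13.08 and 12.61 in MT2, 13.15, 13.30 and 13.26 in GFP and 5.58, 5.42, 5.32 and 5.62 in GMP. L-GMP were below MT2 by a log2 difference of −1.47 (SE 0.34, adjusted p = 0.028), a call lost without MT2 2, MT2 3, MT2 4 or L-GMP 3, with an adjusted p of up to 0.081. By their means they were at least 38.7-fold above GMP, and the difference of differences was 6.28 (SE 0.38, adjusted p = 1.5e-06). Mycn, a Myc family transcription factor, stood at 9.46, 9.60 and 9.85 in L-GMP, 10.81, 9.90, 10.30 and 11.28 in MT2, 13.45, 13.12 and 13.65 in GFP and 6.80, 7.80, 6.80 and 6.43 in GMP. Its L-GMP minus MT2 difference of −0.94 did not pass the test (adjusted p = 0.091), and its difference of differences was 5.51 (SE 0.47, adjusted p = 1.1e-05). Mycn was lower on every MT2 array than on any GFP array, which adds to that value. The 9 genes that fell in L-GMP but were called positive in the difference of differences were Saa3, the cytokine feedback inhibitor Socs3, the chemokine receptor Ccr1, the Cdk inhibitor Cdkn1a, Csf2rb2, Slc2a1, Ctsl, Dusp3 and Tgfbi, of which Csf2rb2 lost that positive call without 11 of the 14 arrays in turn. Socs3 stood at 7.32, 7.46 and 5.36 in L-GMP against 9.14, 10.12, 10.30 and 9.09 in MT2, a log2 difference of −2.95 (SE 0.54, adjusted p = 0.012), and at 3.83, 4.55, 4.61 and 3.87 in GMP.

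The genes that separated L-GMP from MT2 beyond the sorted-against-36-hour difference were led by Hpgd, the enzyme that inactivates prostaglandins. Hpgd stood at 11.77, 11.10 and 7.61 in L-GMP and at 3.99, 3.97, 3.92 and 3.73 in MT2, and was under the background level on every array of MT2, GMP and GFP. It was at least 19.1-fold higher in L-GMP, with a difference of differences of 6.03 (SE 0.96, adjusted p = 0.0021); L-GMP 3 was the lowest of the leukemic arrays. Tnnt1, the slow skeletal muscle troponin T, stood at 10.74, 10.94 and 10.91 in L-GMP and 5.76, 5.93, 6.01 and 6.96 in MT2. It was 25.9-fold higher in L-GMP, a log2 difference of 4.70 (SE 0.28, adjusted p = 7.0e-05), with a difference of differences of 4.67 (SE 0.33, adjusted p = 3.5e-06). The RNA-binding protein Igf2bp3, normally a fetal gene, stood at 10.07, 10.69 and 10.61 in L-GMP, at 7.50, 6.70, 6.19 and 6.76 in MT2, and under the background level on every GMP and GFP array.

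The group means of Igf2bp3 were 4.75 ± 0.47 in GMP (SD, n = 4), 4.68 ± 0.25 in GFP (n = 3), 6.79 ± 0.54 in MT2 (n = 4) and 10.46 ± 0.33 in L-GMP (n = 3). L-GMP were 12.7-fold above MT2, a log2 difference of 3.67 (SE 0.30, adjusted p = 3.5e-04), and 3 of 3 other tested probe sets of the gene were called the same way. Slfn4, a Schlafen gene of myeloid cells, stood at 12.39, 11.33 and 10.09 in L-GMP and 6.83, 6.91, 8.18 and 8.77 in MT2, a log2 difference of 3.60 (SE 0.62, adjusted p = 0.0097). The Slfn4 difference of differences was 3.44 (SE 0.74, adjusted p = 0.014).

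Sgip1, an endocytic adaptor, stood at 9.25, 9.83 and 9.65 in L-GMP and 5.30, 5.76, 5.55 and 6.32 in MT2, a log2 difference of 3.84 (SE 0.26, adjusted p = 1.2e-04). The Sgip1 difference of differences was 3.90 (SE 0.45, adjusted p = 1.6e-04). Tctex1d1, a dynein light chain family gene that is the next protein-coding gene to Sgip1 in the RefSeq order of chromosome 4, stood at 8.28, 9.67 and 9.31 in L-GMP and 5.06, 6.26, 6.33 and 6.55 in MT2, a log2 difference of 3.04 (SE 0.43, adjusted p = 0.0038). Both neighbours were thus higher on each of the 3 L-GMP arrays than on any MT2 array. Ak4, which lies 11 protein-coding genes from Sgip1 and fell, is described below with the lower genes. LOC664787 differed by 2.97 (SE 0.20, adjusted p = 1.2e-04) and Mgl2, a galactose-binding lectin of macrophages, by 3.80 (SE 0.21, adjusted p = 5.3e-05), and Mgl2 was under the background level on all MT2 and GFP arrays.

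Further genes of this kind, named after their values were seen, were Dpp4, a surface peptidase, and Atp1b1, the beta subunit of the sodium pump. Dpp4 stood at 8.54, 9.18 and 9.52 in L-GMP and 6.01, 5.63, 5.61 and 5.54 in MT2, at least 9.01-fold higher, a log2 difference of 3.38 (SE 0.24, adjusted p = 1.7e-04). The Dpp4 difference of differences was 1.76 (SE 0.38, adjusted p = 0.013). Atp1b1 stood at 9.36, 10.15 and 10.53 in L-GMP and 7.09, 7.08, 7.10 and 7.44 in MT2, 7.14-fold higher, a log2 difference of 2.84 (SE 0.27, adjusted p = 6.9e-04). The Atp1b1 difference of differences was 2.74 (SE 0.33, adjusted p = 2.4e-04).

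**Figure D4:**
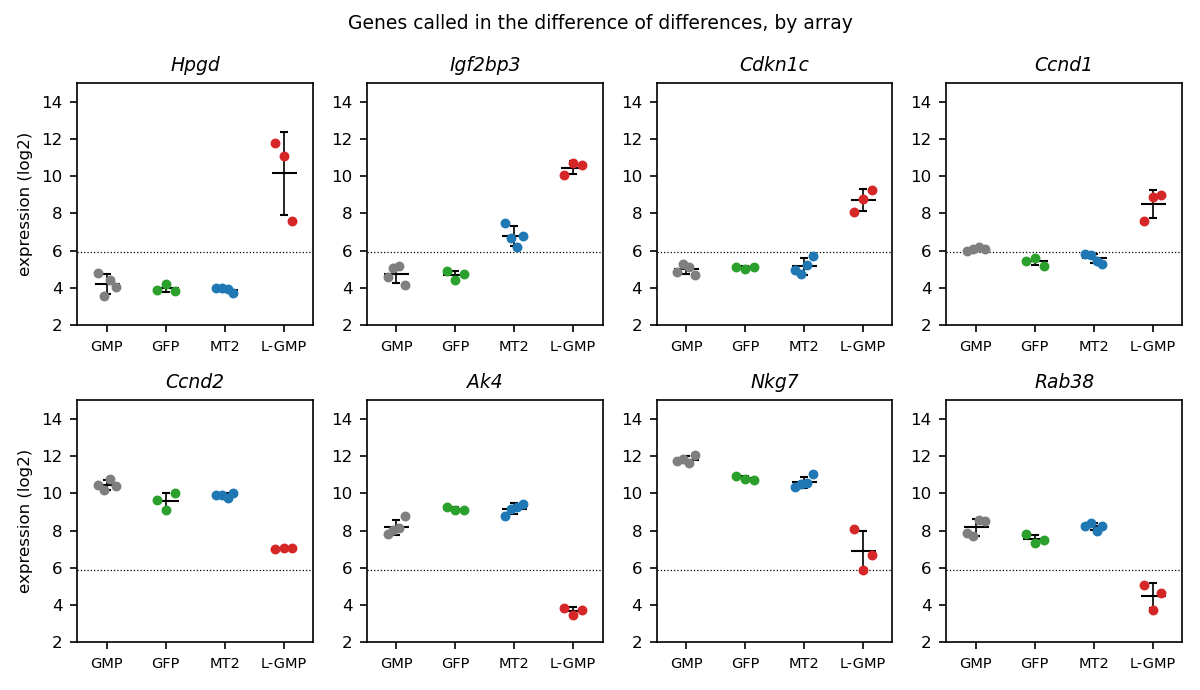
Log2 expression of 8 genes called in the difference of differences, on each array (points), with group means and SDs (bars) and the background level (dotted line). Hpgd, Cdkn1c and Ccnd1 are over the level in L-GMP while MT2 and GFP are under it, Igf2bp3 is higher in L-GMP than in MT2, and Ccnd2, Ak4, Nkg7 and Rab38 are lower in L-GMP than in each of the other groups.

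Ak4, the mitochondrial adenylate kinase, led the genes that were low in L-GMP alone of the 4 groups. It stood at 3.86, 3.48 and 3.73 in L-GMP, 8.77, 9.16, 9.29 and 9.45 in MT2, 7.82, 8.04, 8.12 and 8.77 in GMP and 9.27, 9.11 and 9.08 in GFP. All L-GMP arrays were under the background level and all 11 others over it. The L-GMP minus MT2 difference was −5.48 (SE 0.20, adjusted p = 8.2e-06), at least 9.59-fold lower, and the difference of differences −4.51 (SE 0.31, adjusted p = 3.2e-06). Rab38, a small GTPase of lysosome-related organelles, stood at 5.06, 3.75 and 4.67 in L-GMP and 8.27, 8.39, 7.99 and 8.26 in MT2, a log2 difference of −3.73 (SE 0.29, adjusted p = 2.6e-04). The Rab38 difference of differences was −4.37 (SE 0.41, adjusted p = 2.3e-05). Nkg7, a membrane protein of cytotoxic and granulocytic granules, stood at 8.08, 5.90 and 6.71 in L-GMP and 10.34, 10.49, 10.55 and 11.02 in MT2, a log2 difference of −3.70 (SE 0.45, adjusted p = 0.0021). The Nkg7 difference of differences was −4.70 (SE 0.51, adjusted p = 7.8e-05).

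Rps4l, a ribosomal protein S4 gene, stood at 3.78, 3.43 and 3.14 in L-GMP and 7.01, 6.90, 6.92 and 7.48 in MT2, a log2 difference of −3.63 (SE 0.21, adjusted p = 6.8e-05). Ppic, a cyclophilin of the secretory pathway, stood at 4.08, 5.50 and 4.22 in L-GMP and 7.40, 7.48, 7.39 and 8.15 in MT2, a log2 difference of −3.01 (SE 0.36, adjusted p = 0.0019), and Erdr1 at 7.82, 7.07 and 7.59 in L-GMP and 10.41, 10.24, 9.75 and 9.83 in MT2, a log2 difference of −2.56 (SE 0.24, adjusted p = 6.3e-04). For each of these genes the L-GMP arrays lay below all MT2 arrays. Adgrl4, an adhesion G protein-coupled receptor, differed by −2.02 (SE 0.39, adjusted p = 0.015), a call lost without MT2 4, with an adjusted p of up to 0.051, with a difference of differences of −3.58 (SE 0.51, adjusted p = 8.8e-04). Named after their values were seen, the chemokine Ccl9 stood at 5.68, 6.93 and 6.52 in L-GMP and 9.46, 9.30, 9.72 and 10.01 in MT2, a log2 difference of −3.25 (SE 0.30, adjusted p = 6.7e-04) with a difference of differences of −3.31 (SE 0.36, adjusted p = 9.2e-05), and the monoamine oxidase Maoa at 5.40, 5.59 and 5.51 in L-GMP and 8.39, 8.23, 8.07 and 8.55 in MT2, a log2 difference of −2.81 (SE 0.16, adjusted p = 6.8e-05).

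The D cyclins, which start the cell cycle with Cdk4 and Cdk6, moved in opposite directions. Ccnd2, cyclin D2, stood at 7.02, 7.09 and 7.04 in L-GMP and 9.94, 9.90, 9.74 and 10.00 in MT2, 7.17-fold lower. The difference was −2.84 (SE 0.14, adjusted p = 3.0e-05), 4 of 4 other tested probe sets were called the same way, and the difference of differences was −3.70 (SE 0.28, adjusted p = 3.8e-06). Ccnd1, cyclin D1, stood at 7.62, 8.91 and 8.97 in L-GMP and 5.83, 5.76, 5.45 and 5.28 in MT2, at least 6.03-fold higher. The difference was 2.92 (SE 0.33, adjusted p = 0.0016) and the difference of differences 2.26 (SE 0.38, adjusted p = 0.0031). Ccnd1 was thus near or under the background level in GMP, GFP and MT2 and over it on each L-GMP array.

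Cdkn1c, the Cdk inhibitor p57 of quiescent stem cells, stood at 8.08, 8.77 and 9.27 in L-GMP and 4.94, 4.72, 5.21 and 5.73 in MT2, at least 6.94-fold higher, a log2 difference of 3.55 (SE 0.32, adjusted p = 5.8e-04). The Cdkn1c difference of differences was 3.66 (SE 0.38, adjusted p = 6.4e-05). Cdkn1a, the Cdk inhibitor p21, differed by −1.06 (SE 0.28, adjusted p = 0.043), a call lost without MT2 1, MT2 2, MT2 3, MT2 4 or L-GMP 3, with an adjusted p of up to 0.11. Of the 17 tested genes of the D cyclin, Cdk and Cdk inhibitor list, these 2 rose (Ccnd1 and Cdkn1c), 2 fell (Ccnd2 and Cdkn1a), and without L-GMP 1 the counts were 4 and 6.

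Hoxa genes and their cofactors were higher in L-GMP. Of 16 genes listed, 13 are on the array and 7 were tested; 5 rose (Hoxa5, Hoxa7, Hoxa9, Meis1 and Pbx3), and Pbx2 and Pknox1 did not pass the test. A member enters the test where 1 group lies over the background level on at least 2 arrays, so the tested members are not all members. Hoxa5, Pbx3 and Pknox1 entered through L-GMP alone, which favours higher over lower values among them. The median difference of the 7 was 0.96, and 0.84, 1.13 and 0.96 on L-GMP 1, 2 and 3. The count of higher members was 1 without MT2 1 or MT2 2, 2 without MT2 3 and 3 without L-GMP 2.

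Hoxa9, the homeobox factor that drives progenitor self-renewal, stood at 12.07, 11.82 and 11.97 in L-GMP and 10.92, 10.47, 10.17 and 11.20 in MT2, 2.4-fold higher, a log2 difference of 1.26 (SE 0.25, adjusted p = 0.016). The Hoxa9 call was lost without MT2 2, with an adjusted p of up to 0.056. The Hoxa9 difference of differences was 1.20 (adjusted p = 0.092). Hoxa9 stood at 9.17, 8.59, 9.59 and 9.67 in GMP and 9.40, 8.90 and 9.28 in GFP, so that the order of the means was L-GMP, MT2, GMP and GFP, with a GFP minus GMP difference of −0.06 (adjusted p = 0.91). Hoxa5 stood at 8.99, 7.40 and 6.78 in L-GMP and 5.75, 5.28, 5.52 and 6.24 in MT2, a log2 difference of 2.03 (SE 0.48, adjusted p = 0.032). The Hoxa5 call was lost without MT2 1, MT2 2, MT2 3, MT2 4 or L-GMP 2, with an adjusted p of up to 0.093. L-GMP 1 had the highest Hoxa5 level of the leukemic arrays. In GFP minus GMP, Hoxa5 differed by −0.63 (adjusted p = 0.024), and its difference of differences was 1.40 (adjusted p = 0.16).

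Hoxa7 differed by 0.96 (SE 0.19, adjusted p = 0.017), a call lost without MT2 1, MT2 2 or MT2 3, with an adjusted p of up to 0.06. Meis1, the Hox cofactor, stood at 7.97, 8.26 and 8.18 in L-GMP and 6.54, 6.14, 5.21 and 7.21 in MT2, a log2 difference of 1.86 (SE 0.41, adjusted p = 0.024). The Meis1 call was lost without MT2 1, MT2 2, L-GMP 2 or L-GMP 3, with an adjusted p of up to 0.077. The GFP minus GMP difference of Meis1 was −1.78 (adjusted p = 0.013), and its difference of differences was 0.08 (adjusted p = 0.96). The Meis1 means were 8.14 in L-GMP, 6.28 in MT2, 5.87 in GMP and 4.09 in GFP. By its mean, L-GMP was thus above GMP and MT2 above GFP, a change that cancels in this contrast. Pbx3 differed by 0.73 (SE 0.14, adjusted p = 0.015), a call lost without MT2 1 or MT2 3, with an adjusted p of up to 0.051, and was the list member called in the difference of differences, at 0.88 (SE 0.21, adjusted p = 0.026), lost without GMP 1, MT2 1, MT2 3, GFP 1 or GFP 2. Pbx2 differed by 0.17 (adjusted p = 0.54) and Pknox1 by 0.57 (adjusted p = 0.12).

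Of the genes that are partners in leukemia fusions, Runx1 and Hoxa9 rose among 5 tested. Runx1, the blood transcription factor of the AML1-ETO fusion, stood at 8.94, 9.03 and 8.88 in L-GMP and 7.30, 7.16, 7.69 and 7.34 in MT2. It was 2.98-fold higher in L-GMP, a log2 difference of 1.58 (SE 0.16, adjusted p = 0.0011). The Runx1 difference of differences was 0.95 (adjusted p = 0.12). Kat6a, the MOZ gene itself, stood at 7.70, 7.95 and 8.07 in L-GMP and 7.65, 7.68, 7.64 and 7.97 in MT2, a difference of 0.17 (adjusted p = 0.55). The values of Crebbp and Nup98 were 0.06 (adjusted p = 0.87) and 0.35 (adjusted p = 0.24). The labels do not say whether the Kat6a probe set reads the vector's fusion transcript, so it is no check of the oncogene. Of 18 tested stem and early progenitor genes, 7 rose (Flt3, Tal1, Lmo2, Lyl1, Egr1, Cdkn1c and Igf2bp3) and 2 fell (Kit and Hlf), with a median of 0.78, and without L-GMP 1 the counts were 11 and 5. The count of higher genes was 3 without MT2 1, MT2 2, MT2 3 or L-GMP 3 and 4 without L-GMP 2.

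Kit, the stem cell factor receptor, stood at 8.29, 7.75 and 8.00 in L-GMP, 8.91, 8.65, 8.92 and 9.12 in MT2, 9.00, 8.98 and 8.33 in GFP and 10.03, 9.85, 10.33 and 10.85 in GMP. The L-GMP minus MT2 difference was −0.89 (SE 0.18, adjusted p = 0.019), a call lost without MT2 1, MT2 3, MT2 4 or L-GMP 2, with an adjusted p of up to 0.063, and the difference of differences was −2.38 (SE 0.34, adjusted p = 9.3e-04). Flt3, the receptor of early progenitors, stood at 6.43, 8.20 and 8.35 in L-GMP and 6.02, 6.04, 5.89 and 5.54 in MT2, a log2 difference of 1.79 (SE 0.43, adjusted p = 0.034). The Flt3 call was lost without MT2 1, MT2 2, MT2 3, MT2 4, L-GMP 2 or L-GMP 3, with an adjusted p of up to 0.11. The Flt3 difference of differences was 1.04 (adjusted p = 0.34, and 0.017 without L-GMP 1). Sox4 and Myc, named after their values were seen, did not pass at the probe set used: Sox4 differed by 1.15 (adjusted p = 0.089), while 4 of its 5 other tested probe sets were called higher, and Myc by −0.53 (adjusted p = 0.13).

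Granule genes were lower in L-GMP by their medians, with a wide spread between the leukemic arrays. Of 17 tested primary granule genes, 5 fell (Gstm1, Ctsc, Srgn, Serpinb1a and Nkg7) and none rose, with a median of −0.95. The medians on L-GMP 1, 2 and 3 against the MT2 mean were −0.03, −0.51 and −1.71, and the count was 2 without MT2 1, MT2 2, MT2 3, MT2 4 or L-GMP 3, 3 without L-GMP 2 and 13 without L-GMP 1. Gstm1, a glutathione transferase, stood at 9.38, 7.94 and 8.14 in L-GMP and 10.31, 10.65, 11.03 and 11.04 in MT2, a log2 difference of −2.27 (SE 0.35, adjusted p = 0.0061). The Gstm1 difference of differences was −2.02 (SE 0.43, adjusted p = 0.012). Srgn (adjusted p = 0.061) and Ctsc (adjusted p = 0.15) were not called there, though both were without L-GMP 1 (adjusted p = 1.1e-05 and 0.035). Srgn, the proteoglycan core of granules, differed by −1.73 (SE 0.44, adjusted p = 0.041), a call lost without MT2 1, MT2 2, MT2 3, MT2 4, L-GMP 2 or L-GMP 3, with an adjusted p of up to 0.13, and Ctsc, which activates granule proteases, by −1.34 (SE 0.34, adjusted p = 0.04), a call lost without MT2 1, MT2 2, MT2 3, MT2 4 or L-GMP 3, with an adjusted p of up to 0.12.

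Of 21 tested secondary granule and neutrophil maturation genes, 2 fell (Mmp8 and Ifitm6), with a median of −0.96. The share called was 9.52%, no higher than the 11.6% over all genes. On L-GMP 1 the median against the MT2 mean was 1.23 and 15 of 21 genes were above that mean, whereas on L-GMP 2 and L-GMP 3 the medians were −1.01 and −2.64 and 2 and 1 genes were above it. The list therefore had opposite signs on the leukemic arrays, alongside the neutrophil marker sums given above, and without L-GMP 1 its count of lower genes was 13. The 6 markers of those sums are members of this list, so the sums are no separate reading. Of 26 tested monocyte and macrophage genes, 5 fell (Ccr2, Lgals3, Tlr2, Vcan and Clec4d), all of which had risen in GFP against GMP, and without L-GMP 1 the count was 11 lower and 2 higher; the count of lower genes was 3 without MT2 2, MT2 3 or MT2 4. Ccr2, the monocyte chemokine receptor, stood at 5.68, 7.70 and 8.76 in L-GMP and 9.96, 10.03, 9.94 and 9.09 in MT2, a log2 difference of −2.37 (SE 0.63, adjusted p = 0.047). Its call was lost without MT2 1, MT2 2, MT2 3, MT2 4 or L-GMP 2, with an adjusted p of up to 0.12, and without L-GMP 1 the difference was −1.52.

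The growth lists differed between the leukemic arrays as well. Over all probe sets, 2277 of 11225 were higher and 1880 lower without L-GMP 1. With all arrays, 3.23% of the S phase genes and 2.94% of the Myc target and ribosome biogenesis genes were called. Over all genes the share was 11.6%. Of 31 tested S phase genes, 1 rose (Lig1, DNA ligase 1) and none fell, with 27 of 31 above 0 and a median of 0.39; the medians on L-GMP 1, 2 and 3 were −0.11, 0.35 and 0.77, and without L-GMP 1 the count was 18. Among the 34 Myc target and ribosome biogenesis genes, 1 rose (Nop2, a nucleolar methyltransferase), with medians of −0.56, 0.43 and 0.51, and without L-GMP 1 the count was 14 higher and 1 lower. In GFP against GMP, 22 of these 34 genes fell. Of 33 G2 and mitosis genes none was called by limma (medians −0.75, −0.25 and 0.31; 2 higher without L-GMP 1), and of 27 oxidative phosphorylation genes none was called (4 higher and 3 lower without L-GMP 1).

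Cytokine, inflammation and interferon genes were mixed. Of 30 tested cytokine receptor and JAK-STAT feedback genes, 4 rose (Il6ra, Flt3, Pim3 and Dusp6) and 5 fell (Csf2rb2, Il4ra, Kit, Socs3 and Spred2); the counts were 6 and 9 without L-GMP 1, and for higher genes 0 without MT2 1, MT2 3 or L-GMP 2 and 1 without MT2 2, MT2 4 or L-GMP 3. The count of lower cytokine receptor and feedback genes was 2 without MT2 1, MT2 3 or MT2 4 and 3 without MT2 2. Il6ra, the interleukin 6 receptor, stood at 7.48, 9.01 and 8.98 in L-GMP and 6.76, 7.30, 6.02 and 6.17 in MT2, a log2 difference of 1.93 (SE 0.44, adjusted p = 0.028) whose call was lost without MT2 1, MT2 3, MT2 4, L-GMP 2 or L-GMP 3, with an adjusted p of up to 0.097. The other tested Il6ra probe set had the opposite sign. Il4ra, the interleukin 4 receptor, differed by −0.97 (SE 0.16, adjusted p = 0.0078). In GFP minus GMP, Il4ra differed by 1.68 (adjusted p = 1.7e-04). Its difference of differences was 0.71 (adjusted p = 0.068, and 0.03 without L-GMP 1). Of 16 NF-kB and inflammatory genes, 3 rose (Nfkbia, Ccl3 and Tnf) and Socs3 fell (2 lower without L-GMP 1 or L-GMP 2).

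Nfkbia, the NF-kB inhibitor that NF-kB itself induces, stood at 13.05, 12.88 and 12.51 in L-GMP and 11.06, 11.20, 11.49 and 11.24 in MT2, a log2 difference of 1.56 (SE 0.18, adjusted p = 0.0017). The Nfkbia difference of differences was 1.85 (SE 0.38, adjusted p = 0.011). Ccl3, a chemokine of macrophages, differed by 2.35 (SE 0.40, adjusted p = 0.0086) and Tnf by 0.95 (SE 0.21, adjusted p = 0.027), the latter a call lost without MT2 1, MT2 2, MT2 3, MT2 4 or L-GMP 2, with an adjusted p of up to 0.086. The difference of differences was 1.71 for Ccl3 (adjusted p = 0.19, and 0.03 without GMP 2) and 0.98 for Tnf (adjusted p = 0.13, and 0.022 without GMP 2). Of 29 interferon response genes, 3 rose (Irf9, Oas1a and Ifi27l2a) and none fell. That is a share of 10.3%, no higher than the 11.6% called over all genes. The medians were 1.09, 0.64 and 0.07 on L-GMP 1, 2 and 3, and the count was 1 without MT2 1, MT2 2 or L-GMP 2, 7 without L-GMP 1 and 9 without L-GMP 3.

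Of 16 tested p53 target genes, 3 fell and 1 rose. Gadd45a, a stress gene of growth arrest, stood at 5.69, 5.46 and 5.61 in L-GMP and 7.57, 7.19, 8.07 and 8.35 in MT2, a log2 difference of −2.20 (SE 0.27, adjusted p = 0.0022). The Gadd45a difference of differences was −1.22 (SE 0.33, adjusted p = 0.045), a call lost without 12 of the 14 arrays in turn. Cdkn1a fell as given above, Trp53inp1 fell (log2 difference −0.84, a call lost without MT2 1, MT2 2, MT2 3, MT2 4, L-GMP 2 or L-GMP 3, with an adjusted p of up to 0.14), and Pmaip1, the death gene Noxa, rose by 0.84 (a call lost without MT2 2, MT2 3, MT2 4 or L-GMP 2, with an adjusted p of up to 0.076). Without L-GMP 1 the p53 counts were 5 lower and 1 higher, and the lower count was 1 without MT2 1, MT2 2, MT2 3, MT2 4 or L-GMP 3. Of 17 Bcl2 family and apoptosis genes, 1 rose (Pmaip1) and 2 fell (Bcl2l2 and Apaf1), a called share of 17.6% against 11.6% over all genes.

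Of 16 tested adhesion and homing genes, 4 fell and none rose, among them the integrin Itga6 at −1.38 (SE 0.20, adjusted p = 0.0049), the tetraspanin Cd9 at −1.12 (SE 0.22, adjusted p = 0.015) (a call lost without MT2 1, MT2 2 or L-GMP 2, with an adjusted p of up to 0.056) and Ccr1 at −2.15 (SE 0.38, adjusted p = 0.01); Ccr2 is the other one. Without L-GMP 1 the counts were 5 lower and 3 higher, and the count of lower genes was 2 without MT2 1, MT2 2 or L-GMP 2. Ccr1 stood at 6.69, 6.48 and 5.36 in L-GMP, 7.84, 8.03, 9.02 and 8.43 in MT2 and 4.78, 4.44, 5.09 and 5.11 in GMP, and its difference of differences was 2.45 (SE 0.45, adjusted p = 0.0051). Of 7 tested dendritic cell and MHC class II genes, 2 rose (H2-DMa, a peptide-loading chain, and Flt3) and 1 fell (H2-Ab1, a class II chain). H2-DMa stood at 9.05, 9.36 and 9.26 in L-GMP and 7.80, 7.83, 7.73 and 7.36 in MT2, a log2 difference of 1.54 (SE 0.17, adjusted p = 0.0013), and H2-Ab1 differed by −1.28 (SE 0.30, adjusted p = 0.031), a call lost without MT2 2, MT2 3, MT2 4, L-GMP 2 or L-GMP 3, with an adjusted p of up to 0.088. In GFP minus GMP, H2-DMa differed by −0.95 (adjusted p = 0.046). The difference of differences was 0.59 (adjusted p = 0.37) for H2-DMa and −0.50 (adjusted p = 0.55) for H2-Ab1.

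Of 11 tested Wnt and beta-catenin genes, 2 rose (Ccnd1 and Dvl1) and 1 fell (Fzd7), which became 5 and 2 without L-GMP 1. Dvl1, a cytoplasmic Wnt mediator, differed by 0.67 (SE 0.17, adjusted p = 0.044), a call lost without MT2 1, MT2 2, MT2 3, MT2 4 or L-GMP 2, with an adjusted p of up to 0.13 with the other tested probe set of opposite sign, and the receptor Fzd7 by −0.81 (SE 0.22, adjusted p = 0.04999), a call lost without MT2 2, MT2 3, MT2 4, L-GMP 2 or L-GMP 3, with an adjusted p of up to 0.13. Of 31 chromatin modifiers, 2 rose (Kmt2a and Kmt2c) and 1 fell (Ezh1). Without L-GMP 1 the count was 13 higher and 1 lower, where 2277 of all 11225 probe sets were higher and 1880 lower. Of 17 myeloid transcription factors, 3 rose (Spi1, Runx1 and Jun) and 1 fell (Bcl6), and without L-GMP 1 the counts were 5 and 3. Of 19 cholesterol biosynthesis genes, 3 fell (Mvk, Idi1 and Msmo1; 6 lower and 1 higher without L-GMP 1, with a count of lower genes of 1 without MT2 2, MT2 3 or MT2 4), while 14 of the 19 had risen in GFP against GMP. Of 29 lysosome and endocytosis genes, 3 fell (Ctsh, Ctsl and Atp6v1a; 11 lower and 3 higher without L-GMP 1) and Man2b1 rose. Few genes of other cell types were tested: Kit fell among 4 tested mast cell, basophil and eosinophil genes, the platelet chemokine Ppbp among 7 megakaryocyte and erythroid genes (3 lower without L-GMP 1), Cd79b and Ighm rose among 4 lymphoid genes, Pdgfrb among 6 stromal and endothelial genes (2 higher and 2 lower without L-GMP 1), and none of 3 sex-linked genes was called by limma. The shares called in the first 4 of these lists were 25%, 14.3%, 50% and 16.7%, against 11.6% over all genes. They were 9.68% for chromatin modifiers, 15.8% for cholesterol biosynthesis genes and 13.8% for lysosome and endocytosis genes. For the Wnt list and the myeloid transcription factors they were 27.3% and 23.5%. With another single array left out, counts of 1 or 2 genes went to 0 or 1 in the stem and early progenitor, secondary granule, D cyclin, S phase, Bcl2 family, dendritic cell, Wnt, chromatin, lysosome, fusion partner, megakaryocyte and p53 lists.

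**Figure D5:**
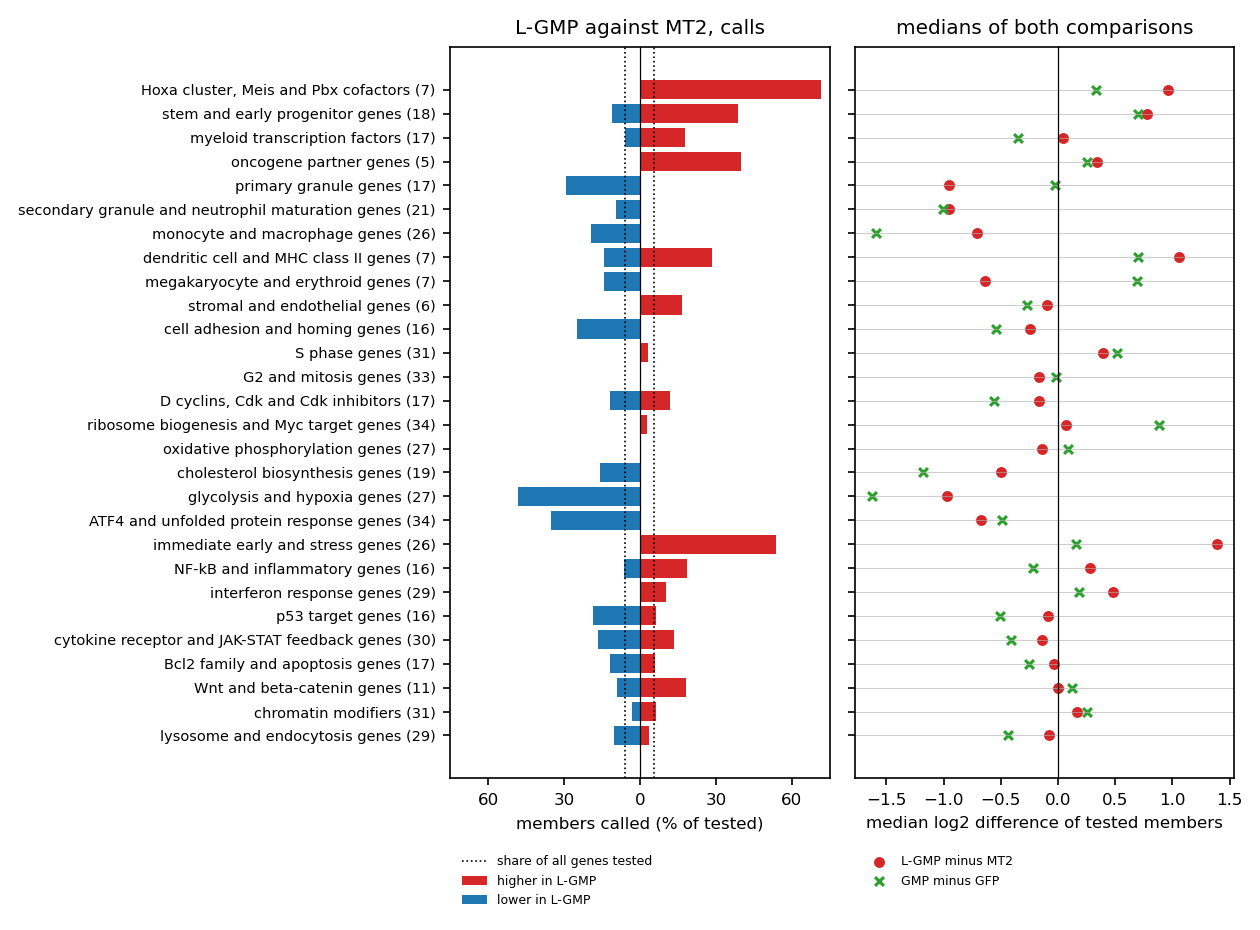
Left, share of tested members of each gene list (number tested in brackets) called higher (to the right) or lower (to the left) in L-GMP than in MT2, with the shares over all genes tested (5.70% and 5.92%) as dotted lines. Right, the median log2 difference of the tested members in L-GMP minus MT2 (circles) and GMP minus GFP (crosses); immediate early and stress genes have the highest circle (1.39) and glycolysis and hypoxia genes the lowest (−0.97).

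Among the lists with 5 or more tested genes, the highest shares of called genes were in the Hoxa list (5 of 7), the immediate early and stress list (14 of 26), the stem and early progenitor list (9 of 18) and the glycolysis and hypoxia list (13 of 27), against 11.6% over all genes. The Hoxa share is favoured by the members that were tested through L-GMP alone, and its count was 1 without MT2 1 or MT2 2. The same filter favours higher values for Hspa1a, Hspa1b and Dusp1 of the immediate early list and Cdkn1c of the stem list. Among the alternative settings other than leaving out 1 array, the lowest counts of higher genes were 1 (Hoxa), 0 (immediate early) and 1 (stem). That of lower glycolysis and hypoxia genes was 0. Of the 79 genes named by rule, 73 were called in L-GMP against MT2, which the rule itself asked for in most cases. With each of the 7 arrays left out in turn, 52 of these 73 were called with the same sign. The per-gene test of the study's design called 15 of the 73, and a fit with the replicate number as a block 43.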

How the data were processed

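The authors deposited log2 expression values, normalized between arrays with GCRMA 2.4.1 from MAS5 image files after removal of outlying arrays, per the labels and the submitters' processing notes; the removed arrays are not named in the sources used here. The table holds 22690 probe sets on 24 arrays; 64 controls were left out, and of the other 22626, 20380 have 1 gene symbol, 691 several and 1555 none. A gene is read by its probe set with the highest mean over all arrays (12393 genes), and 20351 probe sets matched a RefSeq gene. Probe sets over 60 on the linear scale on at least 2 arrays of a compared group were tested with lmFit and eBayes of limma 3.58.1 in R 4.3.3, with Benjamini-Hochberg adjustment over all probe sets tested. L-GMP against MT2 and GFP against GMP were each fitted on their own 7 arrays, and the difference of differences on 14. The present-flag filter of the study's design was not used here. A fold is "at least" where a group mean lay under 60, which then replaces it. The steps were tested on simulated data.

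Genes were named by rule: the 12 largest non-overlapping called differences each way in L-GMP against MT2, the 8 each way called in both it and the difference of differences with the same sign, the 4 each way in GFP against GMP, up to 4 members of smallest adjusted p from lists with at least 5 tested and 25% called, and all tested Hoxa and fusion partner genes, 79 in all. Of their probe sets, 5 end in _s_at, 6 in _x_at and 10 in _a_at and may read more than 1 transcript. The members, the 31 gene lists and the tests were chosen with earlier results of these data known. Alternatives were other filters, quantile normalization, the per-gene test of the study's design, all 24 arrays in 1 fit, a trended and robust variance prior, the replicate number as a block, the file-name tag, the mean of a gene's probe sets, and each array left out; leaving out L-GMP 1 and GMP 2 together was added after seeing the data. Promoter windows came from the RefSeq table on GRCm38.p6 (32851 windows of 27025 genes).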

Additional observations from a re-analysis of the deposited data

Results flagged for a closer look

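Of the genes named by rule, 31 differed between L-GMP minus MT2 and GMP minus GFP by limma's test of the difference of the log2 differences, and 26 of these were also called with the same sign in L-GMP against MT2. The rule asked for both calls with the same sign in 16 of the 31. It asked for a call in L-GMP against MT2 in most of the others, so the 26 is no separate agreement. The 8 largest positive values among the 26 were 6.03 for Hpgd, 4.67 for Tnnt1, 3.90 for Sgip1, 3.71 for Tctex1d1, 3.66 for Cdkn1c, 3.60 for Igf2bp3, 3.44 for Slfn4 and 3.30 for LOC664787. The 8 largest negative values were −4.70 for Nkg7, −4.51 for Ak4, −4.37 for Rab38, −4.04 for Erdr1, −3.84 for Rps4l, −3.73 for Ppic, −3.70 for Ccnd2 and −3.58 for Adgrl4. The adjusted p-values of these 16 lay between 3.2e-06 (Ak4) and 0.014 (Slfn4). The other 10 values were 2.96 for Klf2, 2.90 for Mgl2, 2.75 for Pmaip1, 2.26 for Ccnd1, 2.00 for Il6ra, 1.85 for Nfkbia, 0.88 for Pbx3, −2.38 for Kit, −2.02 for Gstm1 and −1.22 for Gadd45a. The Il6ra call (adjusted p = 0.044) was lost without 12 of the 14 arrays in turn, with an adjusted p of up to 0.12. Another 4 genes were lower in L-GMP than in MT2 and positive in the difference of differences, at 6.28 for Saa3, 3.18 for Socs3, 2.45 for Ccr1 and 1.79 for Cdkn1a, and Mycn (5.51) was not called in L-GMP against MT2.

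In 10 of 158 groups of 4 arrays (6.33%), 1 array lay far from the other 3 in its log2 level by Dixon's criterion, which chance alone meets in about 5% of groups. In GMP, array 2 was apart for Nfkbia (12.64), Ccl3 (7.85) and Il6ra (6.53), array 3 for Tnnt1 (5.88) and array 4 for Erdr1 (11.01). In MT2, array 4 was apart for Ppic (8.15), Ccr2 (9.09) and Kat6a (7.97), array 1 for Spint1 (8.13) and array 2 for Bex6 (7.98). Groups of 3 arrays, L-GMP among them, were not tested in this way.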

How the results depend on the processing

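Probe sets called by limma numbered 1294 in L-GMP against MT2, 1782 in GFP against GMP and 670 in the difference of differences; the first set holds 2 subsets followed here, those called with the opposite sign in GFP against GMP and those called with the same sign in the difference of differences. Quantile normalization gave 2817 for GFP against GMP and 1010 for the difference of differences. The per-gene test of the study's design gave 121, 606 and 81, with subsets of 14 and 28. All 24 arrays in 1 fit gave 2311 for L-GMP against MT2, with subsets of 686 and 562. The file-name tag as a factor gave 2272, 2719 and 1241, with subsets of 708 and 661, and tag A alone 2923 for L-GMP against MT2 and 1988 for the difference of differences, with 1231 in the second subset. With the replicate number as a block, L-GMP against MT2 had 241 calls, with subsets of 99 and 122, GFP against GMP 1638 and the difference of differences 485. The replicate numbers were not taken to pair the samples: deviations of same-numbered arrays from their group means correlated at −0.13, −0.17 and −0.31 in L-GMP and MT2, none of which was best with its own number, and at −0.17, 0.12 and 0.27 in GFP and GMP, of which 2 were. Of the 73 named genes called in L-GMP against MT2, 15 were still called by the per-gene test of the study's design, 43 with the block and 63 to 72 under each of the other settings that left out neither L-GMP 1 nor another single array; of the 16 named for the difference of differences, the per-gene test called 7. Leaving out 1 array at a time gave 595 to 4157, 811 to 4043 and 394 to 1229 calls, with subsets of 207 to 904 and 205 to 873, and leaving out L-GMP 1 and GMP 2 together, an alternative chosen after seeing the data, 4157, 4043 and 2007, with subsets of 1683 and 1208. The causes of these changes were not tested. Of the named genes, 2 that did not pass the test in L-GMP against MT2 changed sign: Pbx2 was −0.0228 and Crebbp −0.0126 within tag A, and Crebbp (0.06) ran from −0.10 to 0.19 with 1 array left out, below 0 without MT2 3 (−0.045) or L-GMP 3 (−0.10). The number of arrays limits the precision.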
